A study of Mus musculus with 12 samples.

Results

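Interferon response genes are genes that a cell transcribes after it senses viral nucleic acid or receives interferon. The 46 genes described here were taken from a list of gene names, by a rule that uses no measured value although earlier results of these data were known when the list was drawn up, and all 46 were found among the 25239 genes of the expression table. They were followed in HT22 cells, an immortalised mouse line derived from hippocampal neurons, labelled wild type. MA-treated cells received 800 μM mesaconitine (MA), a diterpenoid alkaloid of Aconitum plants, for 72 h, and control cells received no MA. For each condition there were 3 input libraries of polyadenylated RNA and 3 libraries of RNA pulled down with an antibody against N6-methyladenosine (m6A), which gives 4 groups and 12 libraries. All groups come from the same cell line.

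Type I interferons bind the receptor of IFNAR1 and IFNAR2, the kinases JAK1 and TYK2 phosphorylate transcription factors such as STAT2, which acts with IRF9 at the interferon-stimulated response element (ISRE) in the promoters of antiviral genes. Interferon gamma acts through IFNGR1 and IFNGR2 on genes whose promoters hold the gamma-activated site (GAS). Methylation of adenosine within mRNA is read by proteins that affect the stability, splicing and translation of transcripts. In neurons and glia, as in most cells, many of these genes are kept low until interferon arrives.

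The files carry no value for a single library. The expression table gives each gene a base mean, which averages normalized counts over the libraries compared, and does not split it by condition. The peak table gives, for each m6A peak, the input and IP reads of control and of MA-treated cells, each summed over the libraries of its group. The authors' own log2 fold changes are also given there and were not used. From the values used here, a change with MA could be measured only for members that carry a peak. Such a change rests on 1 pooled value per group, and no spread between replicates and no p-value can be given. The intervals below cover counting error only. Sequencing depth per library is unknown, and the reads over all 2643 peaks summed to 288659 for control input, 267002 for control IP, 214778 for MA input and 359889 for MA IP.

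Promoters of the members were first compared with all mouse promoters for the letters of the ISRE and the GAS. The choice of genes did not use these letters. Interferon acts on its genes through these elements, however, so a higher share among genes named for that response is no independent finding. The ISRE was searched as GAAANNGAA and the GAS as TTCNNNGAA, on both strands, in RefSeq promoters of GRCm38.p6 that run from 250 bases before to 50 bases after a start site. The GAS letters read the same on either strand, and a match of one motif may overlap a match of the other. RefSeq entries were found for 36 members, with 42 promoters among them. The other 10 members were Dhx58, Gbp4, Iigp1, Mx1, Mx2, Oas2, Parp14, Rtp4, Usp18 and Zbp1. ISRE letters were present in 21 of the 36 members (58.3%), against 9.76% of all 27025 genes with an entry. By promoter, they were present in 21 of the members' 42, against 8.56% of all 32851. GAS letters were present in 11 of the 36 members (30.6%), against 9.55% of all genes with an entry, and in 26.2% of the members' promoters, against 8.30% of all promoters. Both were held by 7 members, which were Adar, Bst2, Eif2ak2, Gbp5, Gbp7, Igtp and Oas1a. A match describes the letters in the window and does not show that a factor binds there.

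The runs below are shown because they carry the element that most of these genes share. Capitals mark the matching letters, and each run is read 5′ to 3′ on the strand on which the ISRE letters read. For the antiviral effectors the matches often stood in tandem, with 3 in Isg15 and 3 in Ifit1.
Isg15: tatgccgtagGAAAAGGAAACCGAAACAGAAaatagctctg
Ifit1: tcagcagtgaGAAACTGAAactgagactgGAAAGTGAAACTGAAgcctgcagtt
Oas1a: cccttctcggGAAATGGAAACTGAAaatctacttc
Bst2: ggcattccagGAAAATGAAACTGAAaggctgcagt
Rsad2: tctgttttctGAAAATGAAagttggacca
The Isg15 run lies at chr4:156200866-156200906 and its matches span bases -78 to -58 from the start site. The Ifit1 run lies at chr19:34640770-34640823, with matches spanning bases -109 to -76. In Oas1a (chr5:120907521-120907555) a pair of overlapping matches ends 6 bases before the start site, and in Bst2 (chr8:71537578-71537612) such a pair spans bases -130 to -116. The Rsad2 run lies at chr12:26456553-26456581.

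The GTPases of the guanylate-binding protein (GBP) and immunity-related GTPase (IRG) families, which attack vacuoles that hold intracellular pathogens, had matches near the start site in most cases.
Gbp2: ttaagacagtGAAAGTGAAactaaaagag
Gbp3: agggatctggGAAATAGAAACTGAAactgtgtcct
Gbp7: atggagaactGAAACTGAAactgcacaca
Igtp: tctaggaactGAAACTGAAagctgttcgg
Irgm1: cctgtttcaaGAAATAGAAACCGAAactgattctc
Gbp2, Gbp3 and Gbp7 lie on chromosome 3, with runs at chr3:142620595-142620623, chr3:142559990-142560024 and chr3:142530274-142530302. Igtp (chr11:58199512-58199540) and Irgm1 (chr11:48871426-48871460) lie on chromosome 11. Gbp7 also held a pair of GAS matches on the strand of the gene at chr3:142530220-142530267, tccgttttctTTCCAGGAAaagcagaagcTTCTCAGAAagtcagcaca.

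Sensors and signalling factors differed in which element they carried. Ddx58, which encodes the RNA helicase RIG-I, held ISRE letters just after its start site, and Stat2 held them far upstream of its own. Irf1, a transcription factor that interferon gamma is known to induce, held GAS letters and no ISRE letters.
Ddx58: ctggccatagGAAATCGAAactgcctcag
Stat2: ctagggaaagGAAACTGAAaccagggtgc
Irf1: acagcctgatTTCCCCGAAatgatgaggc
These runs lie at chr4:40239804-40239832, chr10:128270267-128270295 and chr11:53769914-53769942, and the Irf1 match begins at base -90. By role, ISRE letters were present in 4 of 4 sensors, 6 of 7 GTPases, 7 of 11 antiviral effectors, 3 of 6 modifiers and other genes, 1 of 4 STAT and IRF factors and 0 of 4 antigen processing genes. GAS letters were present in 2 of 4 sensors, 3 of 7 GTPases, 3 of 11 antiviral effectors, 1 of 6 modifiers and others (Ifi35), 1 of 4 STAT and IRF factors (Irf1) and 1 of 4 antigen processing genes (Psmb8). There were 34 ISRE matches, of which 28 began before the start site and 23 within the 150 bases before it, and their median first base was -62. At least 2 matches were held by 10 members.

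**Figure D1:**
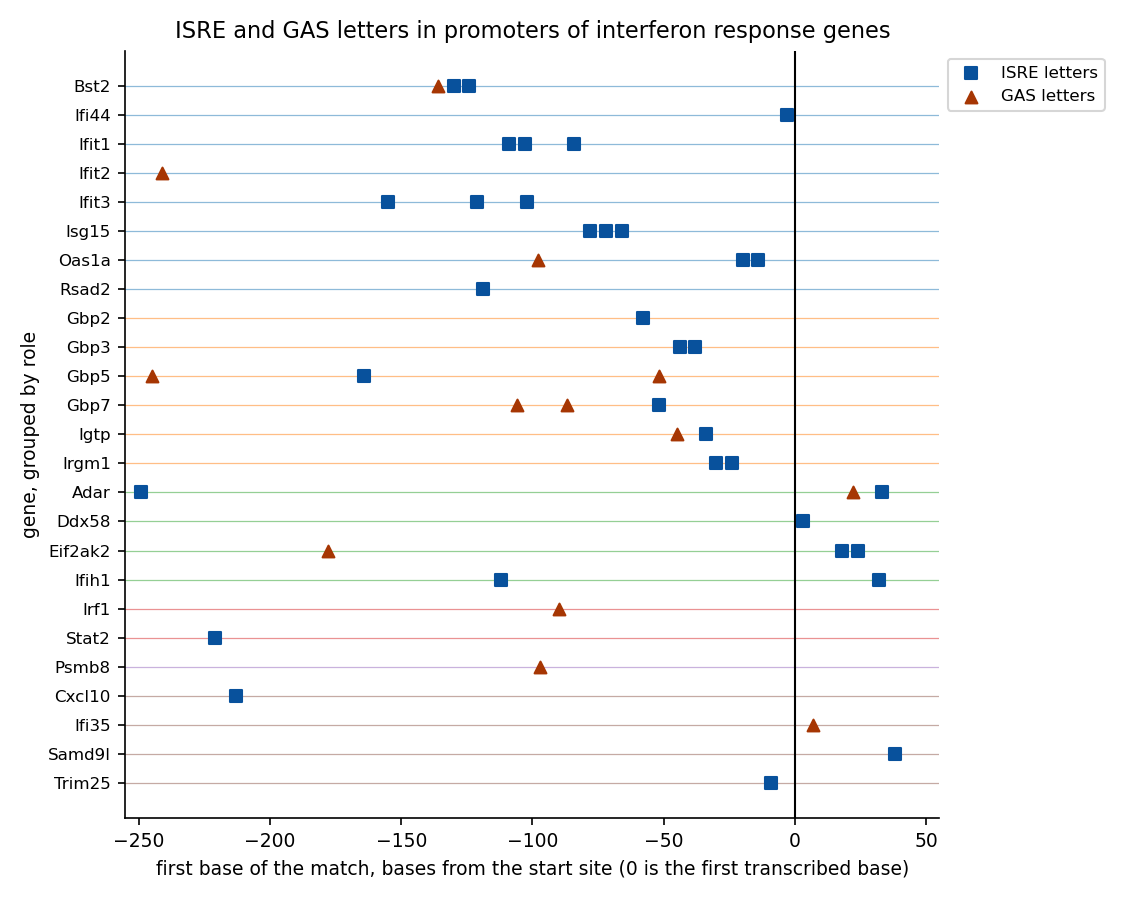
Position of each ISRE match (square) and GAS match (triangle) in the promoters of the members that hold any, with the first base of the match in bases from the start site on the horizontal axis and genes grouped by role on the vertical axis. Of the 34 ISRE matches 28 lie left of the start site, and those after it belong to the sensors Ddx58, Eif2ak2, Ifih1 and Adar and to Samd9l.

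Expression was then described by the base mean, a level over both conditions whose header does not name the libraries that entered it. Of the 46 members 43 had a base mean above 0, and 3 were listed at 0 (6.52%, against 35.9% of all genes). The 3 were Cmpk2, a mitochondrial nucleotide kinase, Ifih1, which encodes the RNA sensor MDA5, and Psmb8, a subunit of the immunoproteasome. In this table a gene listed at 0 need not lack reads, since 96 such genes carry an m6A peak, with up to 528 control input reads in 1 peak. Levels were compared between genes only as base mean per kilobase of the longest transcript. That transcript was taken whatever its type, and for some members it exceeded the longest protein-coding one, as for Psmb9 (2884 against 1352 bases). A longer transcript gives a lower level per kilobase, so the order of genes depends on this choice. On this scale the members above 0 had a median of 99.4, at percentile 42.1 of the genes above 0, whose median was 182, and 17 of the 43 lay above that median. Among genes with a base mean of at least 10 the members' median was 106, at percentile 26.1. In bulk RNA, fewer cells that express a gene and less RNA per cell cannot be told apart.

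The antiviral effectors, which act on viral RNA, proteins and particles, had a median of 65.7 per kilobase, from 4.12 to 1050, and 3 of the 13 above 0 exceeded the median of all genes. Those were Ifit2 (1050 per kilobase, base mean 4010) and Ifit3 (399), which bind viral RNA, and Isg15 (419), a ubiquitin-like protein that is joined to other proteins. Ifit1, which binds RNA whose cap lacks methylation, had 129, and Bst2, which tethers virions to the cell surface, had 113. Of the Ifit3 transcript, 51.2% of 50-base stretches also occur in other genes, with Ifit3b sharing the most, so its level may be shared with them. The oligoadenylate synthetases, which make the activator of RNase L, were lower, with 84.4 for Oas1a and 4.12 for Oas2. The related Oasl2 and Oasl1 had 65.7 and 10.1. In Oas1a, 57.6% of stretches also occur in other genes, mainly Oas1g. The dynamin-like GTPases Mx2 and Mx1, the radical enzyme Rsad2 (viperin) and Ifi44 had 44.5, 7.07, 15.5 and 9.10. Members of the same family therefore lay far apart, as Ifit2 and Ifit1 did.

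GBP and IRG genes had a median of 76.0 per kilobase. Gbp2 (402), Igtp (293) and Irgm1 (284) lay above the median of all genes. Gbp3 had 168, Gbp4 76.0, Iigp1 42.7, Gbp7 16.3 and Ifi47 8.35. Gbp5, which promotes inflammasome assembly, was the lowest member above 0, at 0.481 per kilobase and a base mean of 1.80. Stretches shared with other genes made up 12.8% of Gbp4, 12.8% of Gbp7 and 12.3% of Igtp.

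Sensors and editors of double-stranded RNA held the highest level. Eif2ak2, which encodes the kinase PKR that halts translation when it binds double-stranded RNA, had 1932 per kilobase (base mean 8331), at percentile 92.1 of all genes above 0. The helicase gene Ddx58 had 481 and the adenosine deaminase gene Adar 438. Dhx58, which encodes LGP2, a helicase that modulates both RIG-I and MDA5, had 87.4, and Zbp1, a sensor of Z-form nucleic acid that can trigger necroptosis, had 6.94. The median of the 5 above 0 was 438.

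Among the transcription factors, Irf1 had 1424 per kilobase (base mean 3043) and Stat2 407. Irf9, a DNA-binding partner of STAT2, had 99.4. Irf7, which amplifies type I interferon production, had 41.3. Of the antigen processing genes, the peptide transporter subunit Tap1 had 231, and the immunoproteasome subunits Psmb10 and Psmb9 had 149.6 and 17.0. On this scale Irf1 and Eif2ak2 thus stood well above the other members of their roles. Gapdh, with 82.5% of its stretches also found in other genes, had 272 per kilobase. Whether levels above 0 are too low for some genes was not tested.

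Modifiers and other genes had a median of 199 per kilobase, and 5 of 9 lay above the median of all genes. Ifi35 had 720 and Trim25, a ubiquitin ligase that acts on RIG-I, had 718 (base mean 4011). Samd9l, a restriction factor of poxviruses, had 313, and Xaf1, an antagonist of the apoptosis inhibitor XIAP, had 301. Lgals3bp, a secreted glycoprotein that binds galectins, had 199. The ISG15 protease gene Usp18 (90.4), the receptor-transporter gene Rtp4 (72.7, with 13.6% of stretches shared), the chemokine gene Cxcl10 (66.1) and the ADP-ribosyltransferase gene Parp14 (21.4) were below it. Members with ISRE letters and a level above 0 had a median of 289 per kilobase (n = 20, from 0.481 to 1932) and members with an entry but no ISRE letters 150 (n = 13, from 8.35 to 1424), and these ranges overlap nearly throughout.

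**Figure D2:**
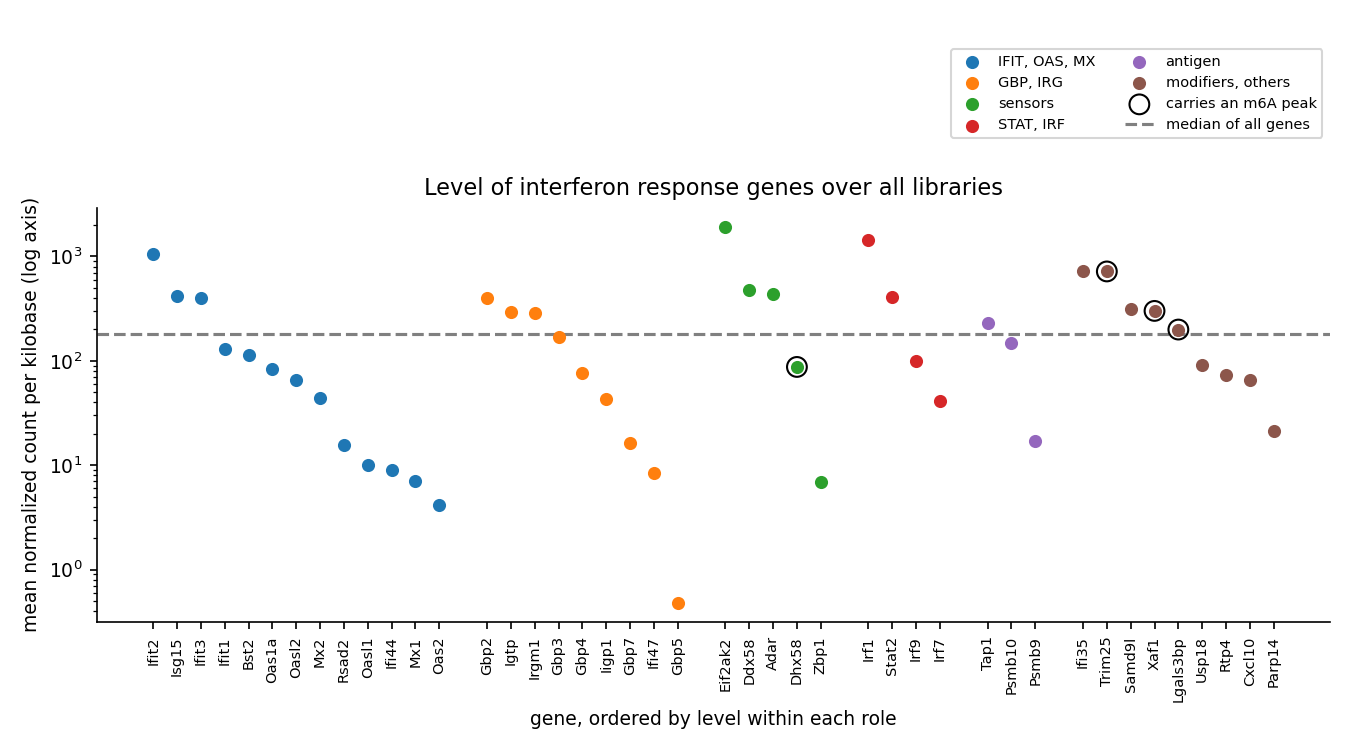
Base mean per kilobase of the longest transcript, on a log axis, for the 43 members above 0, ordered within each role, with the median of all genes above 0 as a dashed line and members that carry an m6A peak circled. Eif2ak2 is highest at 1932 and Gbp5 lowest at 0.481, and 17 of 43 lie above the line at 182.

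The other genes of the pathway were read from fixed lists. Of 9 interferon genes, 5 were listed at 0 (Ifng, Ifna1, Ifnk, Ifnl2 and Ifnl3), and the highest, Ifne, had 8.40 per kilobase, while Ifnb1 had 2.64. Of the receptor, Janus kinase and STAT genes, 9 of 9 were above 0, from 164 for Tyk2 to 3646 for Jak1, with a median of 754. Adaptors and kinases that act behind the sensors were above 0 for 7 of 7 listed, from 28.7 for Tlr3 to 1407 for Tbk1. Of this set Mb21d1 and Tmem173 were not matched by symbol. Peaks were carried by 1 of the 9 receptor and kinase genes (Tyk2) and by 2 of the 7 adaptor genes (Traf3 and Ticam1), against 12.5% of all genes. A level of 0 for a ligand is read here only as listed at 0.

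Markers of cell types were read beside these levels, for the cells the label names and for others. Of 8 neuronal markers 5 were listed at 0 (Map2, Snap25, Stmn2, Nefl and Nefm), and Tubb3 had 253 per kilobase while Rbfox3 had 0.365. Of 8 markers of microglia and macrophages 7 were above 0, with a sum of 477 that came mainly from Cd68 (266), Tmem119 (135) and Aif1 (73.4), while the defining leukocyte gene Ptprc had 0.234 and P2ry12 was listed at 0. T cell markers were at 0.380 for Cd3e and listed at 0 for Cd8a. Of 4 astrocyte markers, Slc1a3 had 257 and Gfap 0.244, and Aqp4 was listed at 0. The 4 fibroblast markers ran from 31.0 for Dcn and 290 for Pdgfrb to 16890 for Col1a1 and 24228 for Col3a1. These values are means over both conditions, so whether any marker moved with MA was not tested.

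Among the 2643 m6A peaks read here, few lay on members. The paper reports more peaks than these, so a gene without one here may still carry m6A. Of the 43 members above 0, 4 carried a peak (9.30%), against 2021 of 16178 genes (12.5%). Peaks are called from reads and follow the level, and within the range of base mean of the 4, from 211 to 4011, 4 of 21 members (19.0%) and 1380 of 7270 genes (19.0%) carried a peak. That range was set by the 4 themselves, so it keeps each of them and drops only members without a peak, and nothing about likeness to other genes can be read from it. The 4 were Dhx58, Lgals3bp, Trim25 and Xaf1, with 5 peaks among them. All lie on chromosome 11, as do members without a peak such as Irf1, Ifi35, Igtp, Irgm1 and Ifi47. The share of all peaks on that chromosome was not computed, so nothing is read from this. No other of the 2643 peaks overlapped an exon of a member on its strand. None of the 14 antiviral effectors, 9 GTPases, 4 STAT and IRF genes or 4 antigen processing genes carried a peak, and neither did the 2 members of highest level, Eif2ak2 and Irf1.

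Positions are on mm10, and the peaks were placed on transcripts of GENCODE M21. The Dhx58 peak, of 50 bases on the minus strand, lay within the coding sequence in exon 11 of 13. It is shown whole, as the only member peak in a coding sequence.
Dhx58: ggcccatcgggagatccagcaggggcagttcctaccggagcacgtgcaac
It lies at chr11:100697070-100697119 and overlaps the antisense gene Dhx58os on the plus strand. The other peaks lay in 3′ UTRs. The Lgals3bp peak (chr11:118392797-118392896, minus strand) began 125 bases after the last base before the stop codon. The Trim25 peak (chr11:89019656-89019730, plus strand) began 2938 bases after that point in its own transcript. Xaf1 had a pair of peaks on the plus strand, the first at chr11:72312311-72312360 and the second at chr11:72312386-72312460, with 25 bases between them. For Lgals3bp and Trim25 the stretch around the m6A consensus RRACH (R is A or G, and H is A, C or T) is shown with the consensus in capitals.
Lgals3bp: ctcactccaGGACTgagagtcccagggccc
Trim25: ttgcggttgcatAGACTtgaccatttctat
These stretches lie at chr11:118392867-118392896 and chr11:89019678-89019707. The consensus was searched on the strand of the transcript. RRACH was absent from the Dhx58 peak and from both Xaf1 peaks. Over all peaks it was present in 48.0% of the 895 of 50 bases, 63.5% of the 389 of 75 bases and 76.0% of the 175 of 100 bases. The wider form DRACH (D is A, G or T) had 1 match in the second Xaf1 peak. It was absent from the Dhx58 peak and the first Xaf1 peak, and present in 72.4% of 1838 peaks of at most 300 bases. Both of these peaks have 50 bases, and the share with DRACH among peaks of that length was not computed.

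The comparison of MA-treated with control cells asked whether m6A on these transcripts changed. It was made as the ratio of IP to input reads after MA over that in control, scaled by the reads over all peaks, and a peak was called at more than 1.5-fold either way. There were 0.925 IP reads per input read over all peaks in control and 1.68 after MA, so the scaling divides each ratio by 1.81. Such scaling also takes out any rise or fall in m6A shared by all peaks. The paper instead took its size factors from background regions that lack methylation. The scaling used here sets the direction of most values below, and the ratio without it is given beside each. Of the 5 peaks 0 were called higher, where 29.7% of all 2643 peaks were, and 2 were called lower, where 23.9% were. Without the scaling 2 of the 5 were called higher and 1 lower, beside 1703 higher and 208 lower of all peaks in place of 786 and 632.

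**Figure D3:**
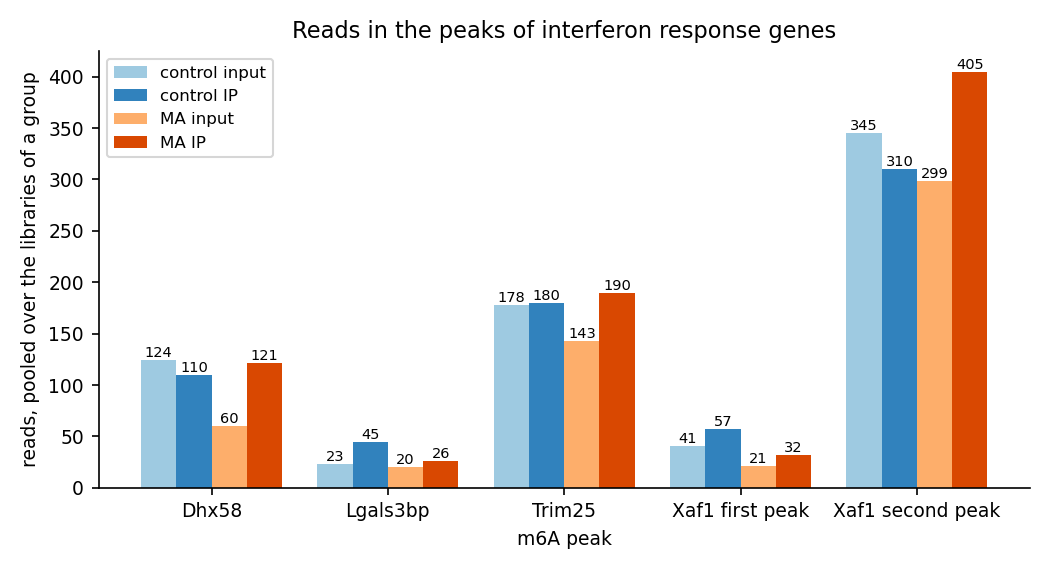
Reads in each of the 5 peaks, as bars from 0 on a linear axis, for input and IP of control and of MA-treated cells, each summed over the 3 libraries of the group, so that no spread can be drawn. MA input has the fewest reads of the 4 groups in each peak, and the second Xaf1 peak has the most reads.

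In the Dhx58 peak the control groups gave 124 input and 110 IP reads, and the MA groups 60 input and 121 IP reads. Input reads after MA were the lowest of the 4 groups, and IP reads were similar in both conditions. IP reads made up 47.0% of the control reads (exact Clopper-Pearson 95% interval 40.5 to 53.6) and 66.9% of the MA reads (59.5 to 73.7). The scaled ratio was 1.25-fold higher after MA, with a 95% interval of 0.839 to 1.88 that includes no change, and without scaling it was 2.27 (1.52 to 3.40). Input reads, scaled by input reads over all peaks, were 0.650 of control (exact interval 0.470 to 0.892), and Dhx58 was the only peak of the 5 called lower in input, where 16.4% of all peaks were. With the median of all peaks set to 0 the input value was 0.672 and the call was lost, and with no scaling 2 of the 5 were called lower. IP reads, scaled in the same way, were 0.816 of control (0.625 to 1.07).

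In the Lgals3bp peak the control groups gave 23 input and 45 IP reads, and the MA groups 20 input and 26 IP reads, the fewest of the 5 peaks. The IP reads were lower after MA and the input reads nearly equal. IP reads made up 66.2% of the control reads (53.7 to 77.2) and 56.5% of the MA reads (41.1 to 71.1). The scaled ratio was 0.367 of control (0.170 to 0.792), and without scaling 0.664 (0.308 to 1.43). It was the only peak of the 5 in which the ratio lay below 1 with and without scaling, although the second interval includes 1. Scaled input reads were 1.17 times control (0.609 to 2.23), and scaled IP reads 0.429 (0.254 to 0.710).

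In the Trim25 peak the control groups gave 178 input and 180 IP reads, and the MA groups 143 input and 190 IP reads. These values lay close together, with MA input lowest. IP reads made up 50.3% of the control reads (45.0 to 55.6) and 57.1% of the MA reads (51.5 to 62.4). The scaled ratio was 0.725 of control (0.537 to 0.979), short of the 1.5-fold call, and without scaling it was 1.31 (0.973 to 1.77), on the other side of 1. Scaled input reads were 1.08 times control (0.860 to 1.35), and scaled IP reads 0.783 (0.635 to 0.966).

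In the first Xaf1 peak the control groups gave 41 input and 57 IP reads, and the MA groups 21 input and 32 IP reads. Both input and IP were lower after MA. IP reads made up 58.2% of the control reads (47.8 to 68.1) and 60.4% of the MA reads (46.0 to 73.5). The scaled ratio was 0.605 of control and called lower, but its interval of 0.306 to 1.196 includes no change, and without scaling it was 1.10 (0.555 to 2.17). Scaled input reads were 0.688 of control (0.386 to 1.19) and scaled IP reads 0.417 (0.261 to 0.653).

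The second Xaf1 peak, with 345 input and 310 IP reads in control and 299 input and 405 IP reads after MA, was the most deeply covered. Its IP reads were highest after MA. IP reads made up 47.3% of the control reads (43.4 to 51.2) and 57.5% of the MA reads (53.8 to 61.2). The scaled ratio was 0.832 of control (0.672 to 1.03), and without scaling 1.51 (1.22 to 1.87). Scaled input reads were 1.16 times control (0.994 to 1.36), and scaled IP reads 0.969 (0.834 to 1.13). In the first Xaf1 peak, 25 bases away, scaled input was 0.688 of control (0.386 to 1.19), and these intervals overlap. Input reads in a peak cover a short window, and whether they follow the whole transcript was not tested. For input, 0 of the 5 peaks were called higher, where 10.6% of all peaks were.

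The ratio of one peak to another does not depend on the scaling, so the 5 peaks were also compared in 10 pairs. The 95% interval included 1 in 7 pairs, among them the pair of Xaf1 peaks, where the change in the first was 0.727 of that in the second (0.356 to 1.48). The change in Dhx58 exceeded that in Lgals3bp by 3.42-fold (1.44 to 8.15) and that in Trim25 by 1.73-fold (1.05 to 2.86). The change in Lgals3bp was 0.441 of that in the second Xaf1 peak (0.198 to 0.980). These intervals are not adjusted for the 10 pairs and hold no spread between replicates. With pooled reads it cannot be told whether the 3 libraries of a group gave the same picture.

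**Figure D4:**
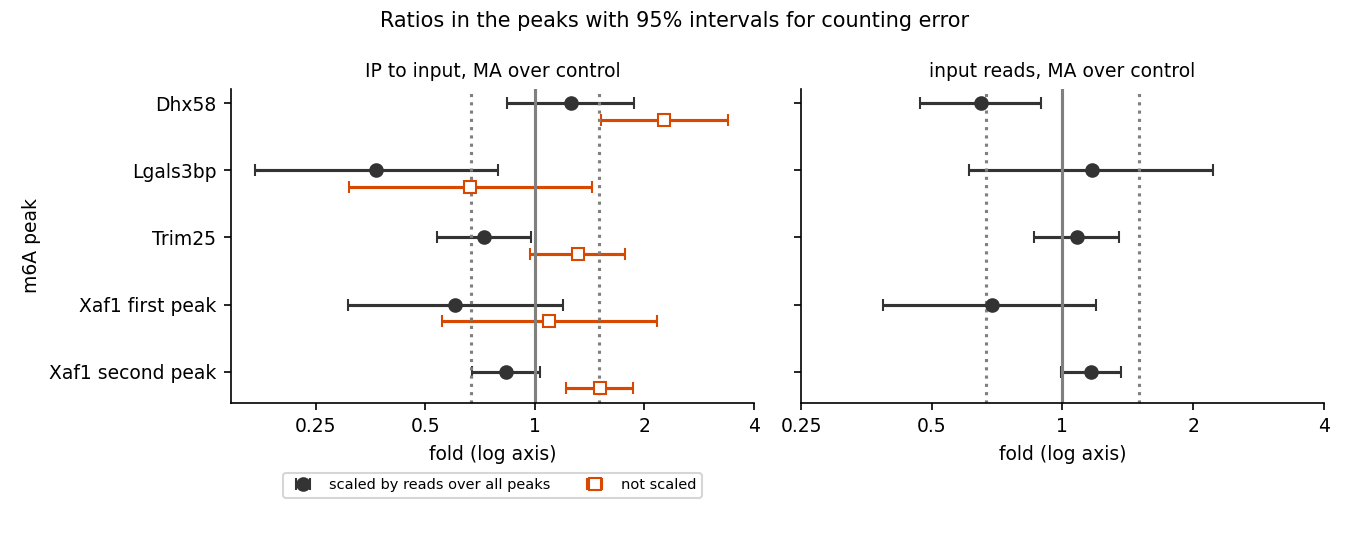
Left, ratio of IP to input reads after MA over control in each of the 5 peaks, scaled by reads over all peaks (filled circles) or not scaled (open squares), and right, scaled input reads after MA over control, all as fold on a log axis with 95% intervals for counting error and dotted lines at 1.5-fold. Dhx58 lies highest on the left at 1.25 and lowest on the right at 0.650, and Lgals3bp lies lowest on the left at 0.367.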

How the data were processed

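mRNA-seq and MeRIP-seq (m6A) were analysed from 3 input and 3 IP libraries each of control and MA-treated HT22 cells. After trimming by fastp, the authors mapped reads with HISAT2 (mm10), and StringTie and DESeq2 served for quantification and comparison. In the deposited expression table the base mean is a signal, made of counts divided by size factors and averaged over libraries. Peaks were called with exomePeak2 by the authors, who deposited counts of reads per peak, summed over a group's replicates. Tool versions are not given in the sources used here. The tables' log2 fold changes, standard errors, statistics, p-values, adjusted p-values, log2 ratios of IP to input, their change and scores are the authors' own comparison and were not used. The number of columns of single libraries left out is 0.

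Values were computed with pandas 2.3.3, numpy 2.4.6, scipy 1.17.1 and pysam 0.24.0 under Python 3.11.15, and drawn with matplotlib 3.10.9. No test was run, since each group gives 1 value. Odds ratios of the 4 pooled counts carry 95% Woolf intervals, and shares and read ratios exact ones. The intervals of odds ratios and read ratios were tested on simulated counts without spread between libraries, and those of shares were not. Pooled reads hold no spread between libraries and need not be independent molecules, so intervals cover counting error only. Levels per kilobase use the longest GENCODE M21 transcript of any type, matched for 24366 genes. Shared stretches are 50-base stretches found in other genes' transcripts. All members are named, by role, and other lists are given by counts and range, with selected genes named. A gene of these lists is not reported here. The members and lists were chosen with earlier results of these data known. The alternatives tried were other scalings, thresholds, minimum reads, lengths and motif letters.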

Additional observations from a re-analysis of the deposited data

How the results depend on the processing

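No paired analysis was possible because the files pool the replicates of each group, and for the same reason the replicate block and leaving out each replicate were not run. Of 71 alternative values, 34 stayed within the counting interval of the value or, for counts, within 1.5 times the count. With no scaling, 1703 of all peaks were called higher and 208 lower in the ratio of IP to input, and 2 and 1 of the members' 5, and 3 peaks crossed 1, the first Xaf1 peak from 0.605 to 1.10, the second from 0.832 to 1.51 and Trim25 from 0.725 to 1.31, since each ratio is multiplied by 1.81. For input, 78 were then called higher and 1084 lower, and 2 of the members' 5 lower. With the median set to 0, 0 of the members' peaks were called lower in input. With at least 20 reads in each group, 474 and 413 peaks were called higher and lower in the ratio, and 162 and 171 in input. At 1.2-fold, 957 peaks were lower in the ratio, with 1 member peak higher and 4 lower, and in input 684 were higher and 869 lower, with 2 member peaks lower. At 2-fold, 478 were higher and 365 lower in the ratio, with 1 member peak lower, and in input 85 higher and 176 lower, with 0 member peaks. The median level of the members was 106 per kilobase (percentile 26.1) at a base mean of at least 10, and 84.4 (percentile 43.4) by the union of exons. Within the range of levels set by the members with a peak, which keeps each of these by construction, 19.0% of members and 19.0% of all genes carried a peak. With the ISRE letters followed by 1 more A, 1131 of all promoters and 17 members held a match, against 2812 and 21. Before the start site alone, 17 members held ISRE and 9 held GAS letters. In peaks of few reads, such as Lgals3bp with 114 in all, depth limits the ratio.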

Other observations

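Genes that act beside the members were read from the same column of levels. Of 10 genes of MHC class I and its loading, all were above 0, from 0.501 per kilobase for Nlrc5, a transactivator of class I genes, to 41234 for the chaperone gene Calr. The class I heavy chain gene H2-D1 had 10153 and its light chain gene B2m 5757, whereas the heavy chain gene H2-K1 had 3.53. Of H2-D1, 14.3% of 50-base stretches also occur in other genes, and of H2-K1 8.79%. Of 10 inhibitors of interferon signalling, all were above 0, from 4.65 for Cish to 1133 for the phosphatase gene Ptpn11, with a median of 493. Socs1, which blocks Janus kinases, had 26.4, and Socs3 had 392. An m6A peak was carried by 0 of these 10 inhibitors and by 1 of the 10 MHC class I genes (Erap1), against 12.5% of all genes above 0, and with so few genes no difference can be read from these counts.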
